A study of Rattus norvegicus with 17 samples.

Results

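The 12 rat kidneys studied after sub-total nephrectomy (SNx) differed in how much collagen transcript they held, and they were divided here into the 6 libraries with the most and the 6 with the least transcript of Col3a1, the type III collagen gene (ENSRNOG00000003357). The 12 SNx libraries are part of a series of 17, the other 5 being control kidneys. Libraries were chosen by their measured Col3a1 level, as log2 CPM (CPM, the count divided by the library's effective size and scaled to a common total) after TMM scaling and with a prior count of 2, and by nothing else. Col3a1 is therefore described but left out of every count and list that follows. The division is one of measured values and not of treatment. The p-values given for it therefore order genes by how far they followed the division, and test no condition.

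The study used male Wistar Han rats, and their ages are not given in the sources used here. In the SNx rats part of the right kidney was resected and the left kidney was later removed, and proteinuria and serum creatinine were followed until kidney tissue was taken. The study states that only some SNx rats of this experiment reached its preset disease level, and the labels do not say which libraries these are. The labels call the controls NoOp, whereas the methods of the study describe the controls of this experiment as sham-operated. Each library came from bulk kidney RNA depleted of ribosomal RNA. The study fixed part of the kidney tissue and froze the rest for RNA or protein work. The labels do not say which part gave the RNA. Each library was taken as 1 rat, so that p-values set differences against the spread between rats. In such bulk RNA, more cells of a type and more RNA per cell cannot be told apart.

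Fibrosis is the replacement of working tissue by extracellular matrix. In the kidney, interstitial fibroblasts and the myofibroblasts that arise from them secrete the fibrillar collagens, of which types I and III are the main ones, while types IV, XV and XVIII belong to basement membranes. Macrophages gather in the injured interstitium, and transforming growth factor beta is the best known signal that drives matrix synthesis.

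The 6 collagen-high libraries, from highest to lowest SNx 1, 12, 3, 7, 2 and 5, held 11.51, 10.06, 9.98, 9.87, 9.78 and 9.74 log2 CPM of Col3a1. The 6 collagen-low libraries, SNx 10, 11, 4, 6, 9 and 8, held 9.54, 9.48, 9.41, 9.29, 9.25 and 8.62. The libraries on either side of the division, SNx 5 and SNx 10, differed by only 0.20, whereas SNx 1 stood 1.45 above the next library. The NoOp libraries held between 6.98 and 7.47, with a mean of 7.15 ± 0.19 (SD, n = 5), and the lowest SNx library lay 1.15 above the highest of them. Group means were 10.16 ± 0.67 (SD, n = 6) for the collagen-high and 9.26 ± 0.34 (SD, n = 6) for the collagen-low libraries, and without SNx 1 the difference of 0.89 became 0.62. SNx 1 is the highest library, and values without it are given beside many of the results below.

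Measures of the libraries themselves overlapped between the groups. RNA integrity was not among these measures. The study reports a wide range of it over its samples, and no value per library was at hand here. Total counts ranged from 19210400 to 30086200 in the collagen-high and from 19271000 to 30784100 in the collagen-low libraries, and from 30454170 to 43876369 in the NoOp libraries. Of 6 measures of the libraries, none passed after adjustment (two-sided exact permutation test over all divisions of the 12 libraries into 6 and 6, lowest Benjamini-Hochberg adjusted p = 0.526, for the TMM factor and for the second principal component). The library numbers in the labels fall into a lower and an upper range whose meaning is not given. The collagen-high group held 4 libraries of the lower range and 2 of the upper, the collagen-low group 2 and 4, and all NoOp libraries were of the lower range.

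No gene passed the threshold between the groups. Of 15064 genes tested beside Col3a1, 0 (0%) had an adjusted p under 0.05 in edgeR's quasi-likelihood test with Benjamini-Hochberg adjustment, and the smallest adjusted p was 0.190, shared by 18 genes. At an unadjusted p under 0.05 there were 1179 genes, of which 677 (4.49% of those tested) were higher and 502 (3.33%) were lower in the collagen-high kidneys. DESeq2 called 104 genes, 66 higher and 38 lower, among them Col8a1 and Cx3cr1 (DESeq2 adjusted p = 0.000313 for each). Fn1, Tlr8 and Itgal, described below, were also among them. By limma-voom 0 genes were called, with 1179 at an unadjusted p under 0.05. Without SNx 1 the quasi-likelihood test again called 0 genes, with 845 at an unadjusted p under 0.05 and a smallest adjusted p of 0.245.

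Counted without a model, 101 genes had no overlap between the groups. In 74 (0.491%) all 6 collagen-high libraries lay above all 6 collagen-low libraries, and in 27 (0.179%) all lay below. Symbols were known for 1990 of the genes tested (13.2%), and these are mostly genes that the study lists as changed. Among the 74 genes 30 had a symbol, and among the 27 none had. Of the 1990 genes with a symbol, 1099 had higher and 891 had lower means in the collagen-high kidneys. Among all genes with a symbol, 11.5% were higher and 1.41% were lower at an unadjusted p under 0.05, and 1.51% lay without overlap above the collagen-low libraries. These shares are the background against which the gene lists below, which hold only genes with a symbol, are to be read. They belong to the fit of all 12 libraries. The same shares without SNx 1 or with number range as a term are not given here. The median difference over all 15064 genes was -0.01 log2 CPM and over the genes with a symbol 0.06.

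All 11 other collagen genes with a symbol had higher means in the collagen-high kidneys, and 3 of them, Col8a1, Col15a1 and Col5a2, did so without overlap. In the list of fibrillar and associated collagens, 6 of 6 were higher, by a median of 0.66 log2 CPM (0.46 without SNx 1), and 4 had an unadjusted p under 0.05. Within the lower number range the median was 0.62 and within the upper 0.40. None passed the adjusted threshold in edgeR, whereas DESeq2 called Col8a1 and, among the basement membrane collagens, Col15a1. The summed level of the fibrillar and associated collagens was 1348 to 7149 CPM in the collagen-high and 737 to 1488 in the collagen-low libraries. That of the basement membrane collagens was 3809 to 6650 and 3329 to 5400 CPM. Both sums overlapped between the groups.

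Col8a1 (ENSRNOG00000039668), which encodes a network-forming collagen of vessel walls, left the widest gap between the groups among the collagens, 0.39 log2 CPM. Its lowest, median and highest values were 6.13, 6.29 and 6.93 log2 CPM in the collagen-high libraries and 5.10, 5.59 and 5.74 in the collagen-low ones. The NoOp libraries held 2.94, 2.26, 2.98, 2.33 and 2.06. Every remnant kidney thus lay far above the controls, and the collagen-high group lay wholly above the collagen-low group. The fitted log2 fold change between the groups was 0.88 ± 0.15 (SE, n = 6 and 6, edgeR adjusted p = 0.190), and 0.73 without SNx 1. Within the lower number range the means differed by 0.73 and within the upper by 0.90.

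Col15a1 (ENSRNOG00000060381), a basement membrane collagen, had a lowest, median and highest value of 6.79, 7.05 and 8.44 in the collagen-high and of 5.73, 6.21 and 6.56 in the collagen-low libraries. Controls held 3.74, 4.10, 3.56, 3.38 and 4.04 log2 CPM. The groups did not overlap, but SNx 1 was 1.24 above the next library. The log2 fold change was 1.14 ± 0.28 (SE, n = 6 and 6, edgeR adjusted p = 0.315), and it was 0.77 without SNx 1.

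Col5a2, a chain of the type V collagen that takes part in the assembly of type I and III fibrils, ran from 7.03 to 8.26 log2 CPM in the collagen-high libraries and from 6.35 to 6.98 in the collagen-low ones, so that only 0.05 parted the groups. Its log2 fold change was 0.72 ± 0.20 (SE, n = 6 and 6, edgeR adjusted p = 0.369), and 0.48 without SNx 1.

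Col1a1 (ENSRNOG00000003897), the main chain of type I collagen, did not follow Col3a1 as cleanly. It ran from 9.56 to 12.49 log2 CPM in the collagen-high libraries, their median being 9.75, and the collagen-low libraries had a lowest value of 8.68 and a median of 9.23. SNx 10, first below the Col3a1 division, held more Col1a1 than 4 of the collagen-high kidneys, and SNx 1 stood 2.44 above SNx 5, the next. The fitted log2 fold change of 1.45 ± 0.53 (SE, n = 6 and 6, edgeR adjusted p = 0.519) became 0.47 without SNx 1. Col6a1, of the beaded microfibrils, gave 0.76 ± 0.27 (SE, edgeR adjusted p = 0.493) and 0.41 without SNx 1.

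Col5a3 and Col16a1 owed their differences largely to SNx 1: the log2 fold changes of 0.61 and 0.60 became 0.08 and 0.11 without it. The basement membrane collagens Col4a1, Col4a2 and Col4a6 differed by 0.35, 0.31 and 0.30 on the log2 fold change scale (0.21, 0.21 and 0.22 without SNx 1) and overlapped. Col18a1, also of basement membranes, did not separate the groups at all. It ran from 9.63 to 10.18 log2 CPM in the collagen-high and from 9.41 to 10.35 in the collagen-low libraries, and its log2 fold change of 0.06 ± 0.17 (SE, n = 6 and 6, edgeR adjusted p = 0.930) had the other sign without SNx 1 and without SNx 11. For the 5 basement membrane collagens the median difference was 0.33, or 0.22 without SNx 1. Within the lower number range it was 0.07 and within the upper 0.41.

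**Figure D1:**
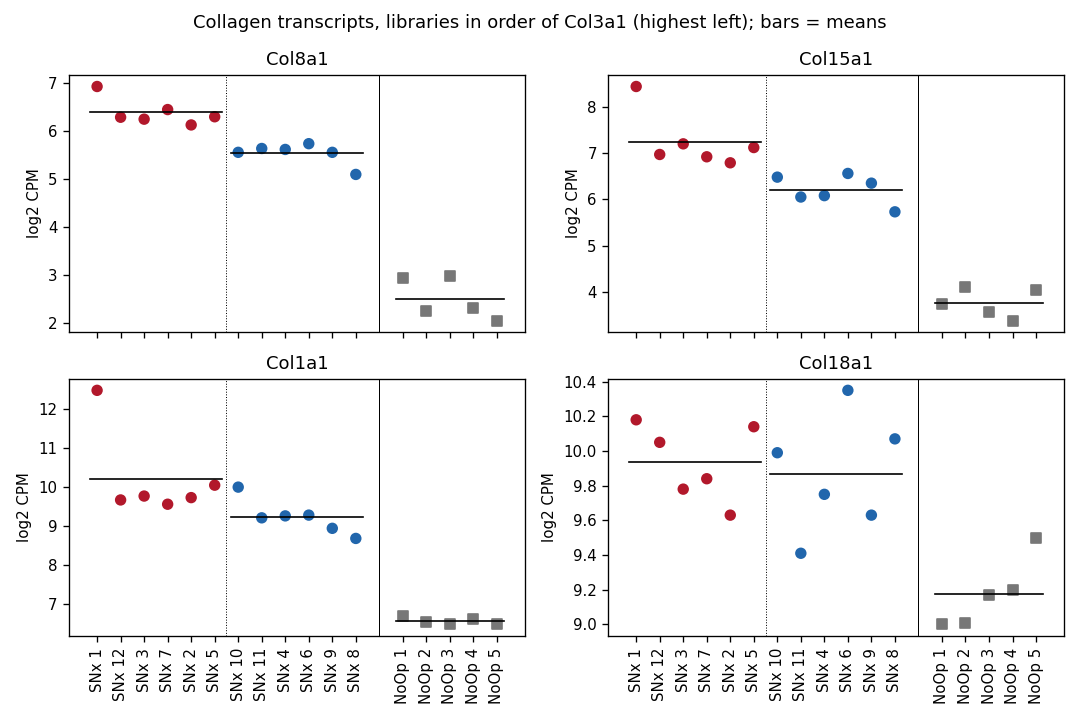
Levels of 4 collagen transcripts in log2 CPM (vertical axes, which do not start at 0) for each library, with the SNx libraries in falling order of Col3a1 (red collagen-high, blue collagen-low) and the 5 NoOp libraries as grey squares; bars are group means. Col8a1 and Col15a1 part at the dotted line, Col1a1 of SNx 10 lies among the red points, SNx 1 reaches 12.49 for Col1a1, and for Col18a1 the groups overlap throughout.

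The wider matrix was also higher in the collagen-high kidneys. Of 18 matrix glycoproteins and proteoglycans, 17 had higher means, with a median difference of 0.48 log2 CPM, and 10 had an unadjusted p under 0.05. The exception was Tgfbi, with a difference of -0.25, or -0.40 without SNx 1. Without SNx 1 the median was 0.35, 5 genes were higher at an unadjusted p under 0.05 and 1 was lower, and the count of higher genes was 6 without SNx 11. The summed level of the list was 3579 to 7442 CPM in the collagen-high libraries, 2565 to 3457 in the collagen-low ones and 1411 to 1608 in NoOp, without overlap between any of these groups.

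Fn1 (ENSRNOG00000014288), fibronectin, was the member that separated fully. It had a lowest, median and highest value of 9.40, 9.77 and 10.89 log2 CPM in the collagen-high and 8.92, 9.14 and 9.26 in the collagen-low libraries, against 7.88, 7.68, 7.38, 7.57 and 7.51 in NoOp. The gap between the lowest collagen-high library, SNx 12, and the highest collagen-low library, SNx 9, was narrow beside the distance to the controls. The log2 fold change was 0.88 ± 0.22 (SE, n = 6 and 6, edgeR adjusted p = 0.319), and 0.60 without SNx 1. DESeq2 called Fn1, whereas edgeR did not.

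Sparc, a collagen-binding matricellular protein, and Ltbp2, a latent TGF-beta binding protein family member of elastic fibres, gave log2 fold changes of 0.57 ± 0.19 and 0.76 ± 0.26 (SE, n = 6 and 6, edgeR adjusted p = 0.458 for each), or 0.37 and 0.52 without SNx 1. Postn, periostin, was higher by 1.14 in mean log2 CPM, and by 0.59 without SNx 1.

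All 9 genes of collagen processing were higher, by a median of 0.50 log2 CPM (0.38 without SNx 1), and 5 had an unadjusted p under 0.05, or 2 without SNx 1. Lox, lysyl oxidase, which cross-links collagen and elastin, ran from 4.38 to 5.60 log2 CPM in the collagen-high and from 3.11 to 4.53 in the collagen-low libraries. SNx 9, of the collagen-low group, held 4.53 and lay among the collagen-high libraries. Its log2 fold change was 0.81 ± 0.27 (SE, n = 6 and 6, edgeR adjusted p = 0.458). Cthrc1, secreted by matrix-forming fibroblasts, gave 1.19 ± 0.38 (SE, edgeR adjusted p = 0.458) and Fkbp10, a collagen chaperone, 0.66 ± 0.26 (SE, edgeR adjusted p = 0.545), or 0.92 and 0.39 without SNx 1. Cthrc1 counts were low, 35 to 86 in the collagen-high and 8 to 46 in the collagen-low libraries. In log2 CPM Cthrc1 overlapped, from 0.63 to 2.06 and from -1.24 to 0.89.

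Matrix proteases and their inhibitors differed less evenly. Of 15 genes 13 were higher, by a median of 0.41 that became 0.19 without SNx 1, and 2 had an unadjusted p under 0.05. Mmp2, a gelatinase, gave 0.88 ± 0.27 (SE, n = 6 and 6, edgeR adjusted p = 0.457), and 0.57 without SNx 1. Mmp12, the macrophage elastase, was highest in SNx 2 at 4.96 log2 CPM and overlapped.

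Myofibroblast and contractile genes were higher in 13 of 13, by a median of 0.35, and 2 had an unadjusted p under 0.05; without SNx 1 the median was 0.23 and none had. Tagln, transgelin of smooth muscle and myofibroblasts, averaged 7.43 ± 0.64 log2 CPM in the collagen-high and 6.99 ± 0.61 in the collagen-low libraries (SD, n = 6 each), a difference of 0.44 that became 0.25 without SNx 1. The 5 genes of the TGF-beta family and its targets were all higher, by a median of 0.39, or 0.29 without SNx 1, and 3 had an unadjusted p under 0.05, or 1 without SNx 1. Tgfb1 itself ran from 6.17 to 7.06 in the collagen-high and from 5.80 to 6.44 in the collagen-low libraries, with a log2 fold change of 0.41 ± 0.18 (SE, n = 6 and 6, edgeR adjusted p = 0.593). Inhba, a subunit of activin A, gave 1.09 ± 0.37 (SE, edgeR adjusted p = 0.458), and 0.59 without SNx 1.

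**Figure D2:**
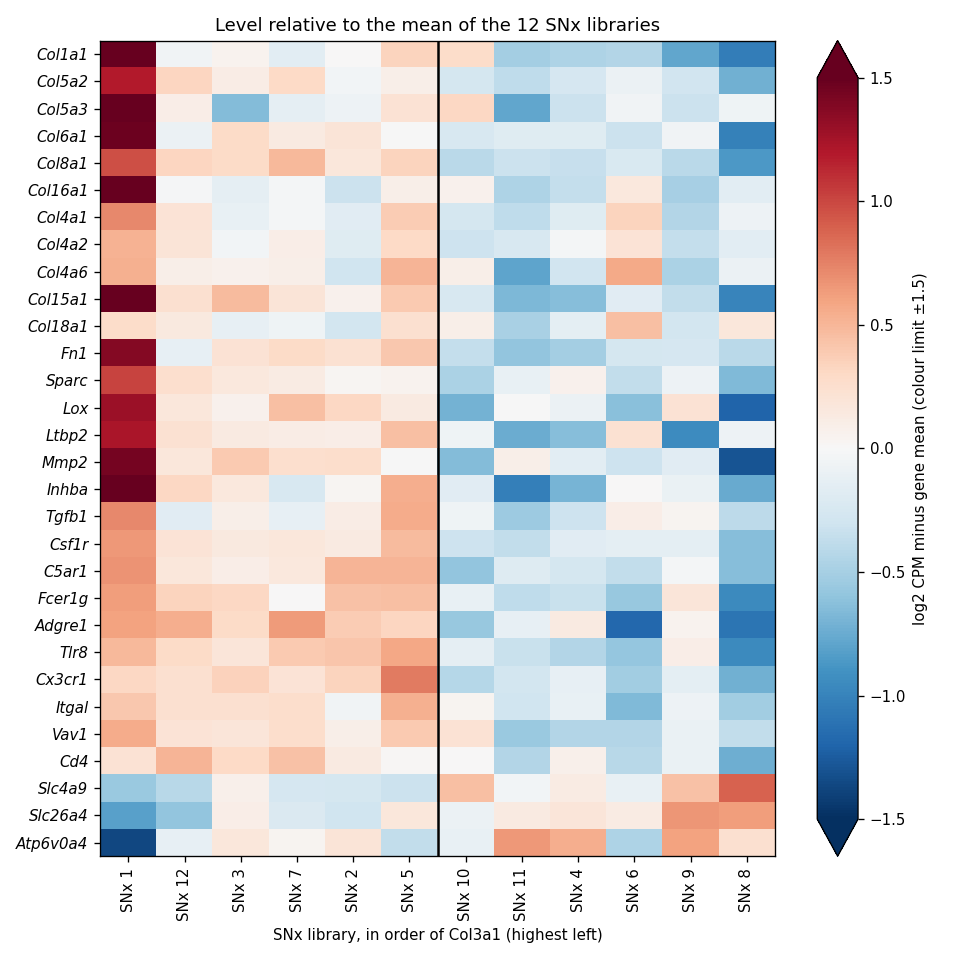
Level of 30 named genes in each SNx library, as log2 CPM minus the mean of the 12 libraries (colour, limited at 1.5 in either direction), with libraries in falling order of Col3a1 and a black line at the division. SNx 1 is the darkest column for most collagens, macrophage genes such as Csf1r and Cx3cr1 are red in all 6 collagen-high libraries, and Slc4a9 and Slc26a4 are bluest on the left.

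All 24 macrophage and myeloid genes tested had higher means in the collagen-high kidneys, by a median of 0.53 log2 CPM. Of these, 16 had an unadjusted p under 0.05 and 3 did not overlap between the groups. Without SNx 1 all 24 were still higher, the median was 0.46 and 11 had an unadjusted p under 0.05. Within the lower number range all 24 were higher and the median was 0.61, and within the upper 22 were higher and it was 0.37. None passed in edgeR after adjustment over all genes, whereas DESeq2 called Csf1r, C5ar1, Fcer1g and Adgre1.

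Summed over the list, and in falling order of Col3a1, the level was 1042, 673, 669, 679, 706 and 835 CPM in the collagen-high libraries. The collagen-low libraries held 555, 464, 519, 553, 643 and 408 CPM. No collagen-low library reached a collagen-high one, although SNx 9 at 643 came near to SNx 3 at 669. The NoOp libraries held 204, 201, 196, 236 and 149 CPM.

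Cx3cr1 (ENSRNOG00000018509), the fractalkine receptor of monocytes and resident macrophages, had a lowest, median and highest value of 4.10, 4.21 and 4.67 log2 CPM in the collagen-high libraries and 3.17, 3.54 and 3.77 in the collagen-low ones. The NoOp libraries held 3.31, 3.06, 2.53, 2.76 and 2.05, so that the collagen-low range met that of the controls. The log2 fold change was 0.74 ± 0.13 (SE, n = 6 and 6, edgeR adjusted p = 0.190), and 0.75 without SNx 1.

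Csf1r (ENSRNOG00000018414), the receptor on which macrophage survival depends, ran from 7.18 through a median of 7.24 to 7.70 in the collagen-high and from 6.41 through 6.81 to 6.91 in the collagen-low libraries, against 5.80, 5.63, 5.38, 5.80 and 5.31 log2 CPM in NoOp. All 3 groups stood apart. The log2 fold change was 0.60 ± 0.12 (SE, n = 6 and 6, edgeR adjusted p = 0.215), and 0.51 without SNx 1.

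C5ar1, the receptor of the complement fragment C5a, ran from 2.97 to 3.55 log2 CPM in the collagen-high and from 2.24 to 2.84 in the collagen-low libraries, and Tlr8, an endosomal receptor of RNA, from 2.65 to 3.05 and from 1.51 to 2.57. Neither gene overlapped. The log2 fold change of C5ar1 was 0.71 ± 0.14 (SE, n = 6 and 6, edgeR adjusted p = 0.215), and that of Tlr8 0.76 ± 0.16 (SE, edgeR adjusted p = 0.268). Adgre1 (ENSRNOG00000046254), the F4/80 antigen of macrophages, ran from 4.66 to 5.01 log2 CPM in the collagen-high libraries and more widely, from 3.19 to 4.51, in the collagen-low ones. The NoOp libraries held 3.59, 3.79, 3.65, 3.54 and 2.71, and SNx 6 and SNx 8 fell below 4 of them. Its log2 fold change was 0.85 ± 0.22 (SE, n = 6 and 6, edgeR adjusted p = 0.337). Against NoOp the collagen-high kidneys differed by 1.35 (edgeR adjusted p = 0.000217) and the collagen-low kidneys by 0.51 (edgeR adjusted p = 0.0878).

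Other defining macrophage markers overlapped. Cd68 averaged 4.28 ± 0.54 log2 CPM against 3.63 ± 0.38, (SD, n = 6 each). C1qa, a chain of complement C1q made by macrophages, differed by 0.73 in mean log2 CPM. Fcer1g, the Fc receptor gamma chain, gave a log2 fold change of 0.70 ± 0.17 (SE, edgeR adjusted p = 0.315).

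Lymphocyte genes were higher in 20 of 20, by a median of 0.31 (0.28 without SNx 1), and 5 had an unadjusted p under 0.05. The summed level was 324 to 530 CPM in the collagen-high, 254 to 427 in the collagen-low and 75.1 to 96.3 in the NoOp libraries, and the SNx groups overlapped. The members with the smallest p were Itgal, an integrin of leukocytes, with a log2 fold change of 0.54 ± 0.13 (SE, n = 6 and 6, edgeR adjusted p = 0.319), Vav1, a signalling protein of blood cells, and Cd4, which rat macrophages carry as well. Cd2, a marker of T cells, differed by 0.03 in mean log2 CPM.

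Complement genes were higher in 5 of 5, by a median of 0.59 that was 0.55 without SNx 1, and 3 had an unadjusted p under 0.05. C2 gave a log2 fold change of 0.71 ± 0.25 (SE, n = 6 and 6, edgeR adjusted p = 0.492). C4a ran from 11.06 to 11.59 log2 CPM in the collagen-high and from 9.96 to 11.37 in the collagen-low libraries. A near-identical gene copy exists, so reads of C4a may have been shared. Pros1, protein S, gave 0.25 ± 0.10 (SE, edgeR adjusted p = 0.540).

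**Figure D3:**
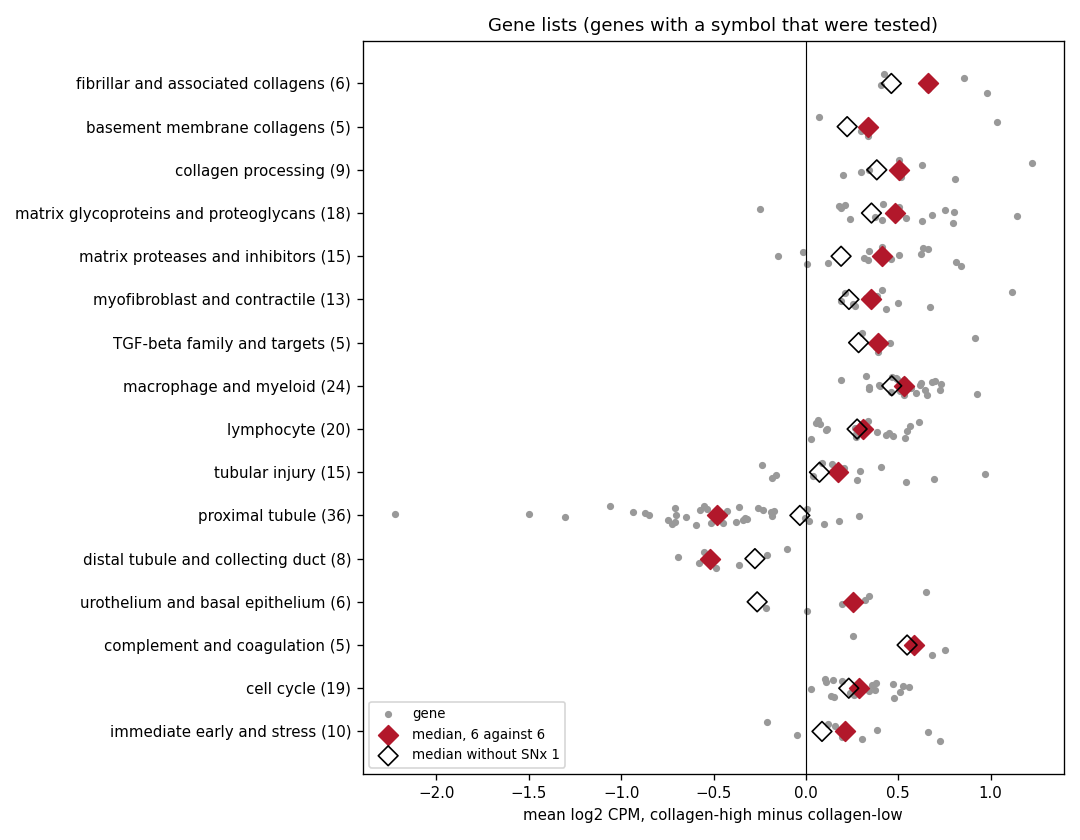
Difference in mean log2 CPM between collagen-high and collagen-low kidneys (horizontal axis) for the genes of each list with 5 or more tested members (number in brackets). Grey points are genes, red diamonds list medians over 6 and 6 libraries and open diamonds medians without SNx 1: macrophage genes stay near 0.5, proximal tubule genes move from -0.48 to -0.03, and the urothelium median changes sign.

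Transport genes of the distal tubule and collecting duct were lower in 8 of 8, by a median of -0.52 log2 CPM that became -0.28 without SNx 1, when 1 of the 8 was higher. An unadjusted p under 0.05 was found for 2 of them, for 4 without SNx 6, and for 2 with any other single library left out. Slc4a9, a transporter of intercalated cells, ran from 6.43 to 7.07 in the collagen-high libraries, from 6.88 to 7.87 in the collagen-low and from 7.36 to 7.89 in NoOp. Its log2 fold change was -0.61 ± 0.17 (SE, n = 6 and 6, edgeR adjusted p = 0.368). Slc26a4, pendrin of the same cells, gave -0.53 ± 0.18 (SE, edgeR adjusted p = 0.468).

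Proximal tubule genes varied widely among the remnant kidneys, with low values in both groups. Their summed level was 2481, 15022, 17911, 13807, 18114 and 5056 CPM in the collagen-high libraries in falling order of Col3a1, and 5573, 25242, 24729, 6747, 21058 and 8523 in the collagen-low ones. Low libraries were found in both groups, SNx 1 and SNx 5 in one and SNx 10, SNx 6 and SNx 8 in the other, and all 12 lay under the 35043 to 42583 CPM of the controls.

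Of the 36 proximal tubule genes 31 were lower in the collagen-high kidneys, by a median of -0.48 over the list, but no member had an unadjusted p under 0.05. Without SNx 1 the median was -0.03, and 17 of the 36 were higher. Within the lower number range the median was -0.93 and within the upper 0.19, so its sign differed between the ranges. Slc34a1, the phosphate transporter, averaged 9.85 ± 2.05 and 10.44 ± 1.34 log2 CPM (SD, n = 6 each), a difference of -0.59 that became 0.06 without SNx 1. Slco1a6, an organic anion transporter, ran from -0.26 to 6.73 in the collagen-high and from 3.35 to 8.45 in the collagen-low libraries, with a log2 fold change of -1.52 ± 1.01 (SE, n = 6 and 6, edgeR adjusted p = 0.738).

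**Figure D4:**
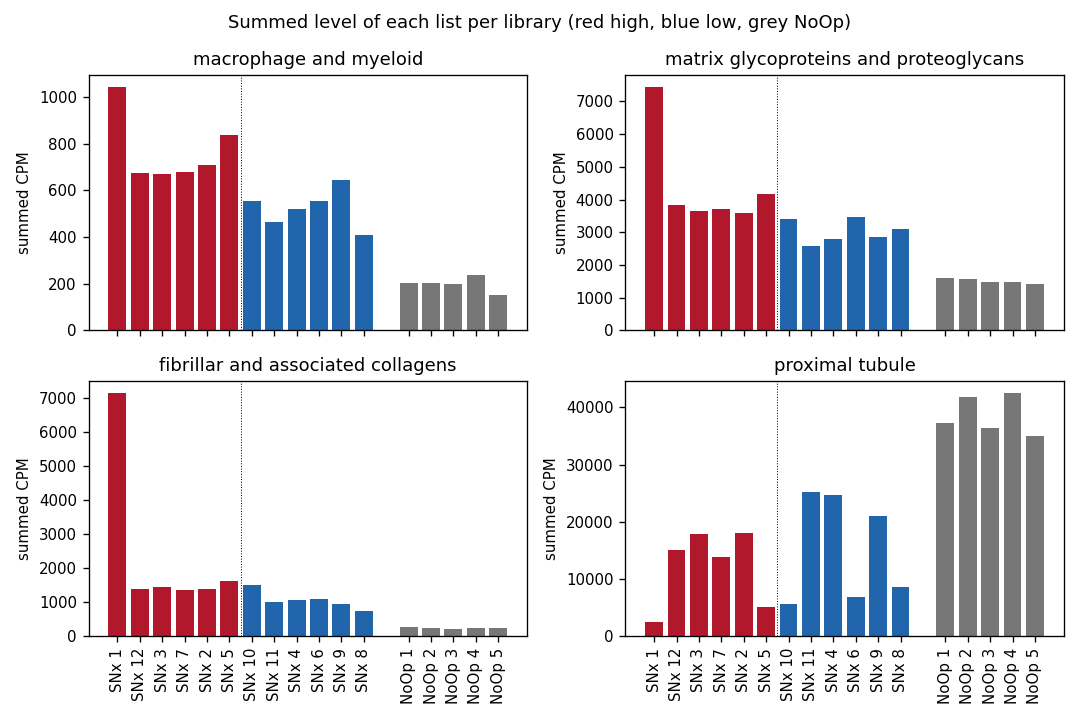
Summed CPM of the tested members of 4 lists (vertical axes, from 0) in each library, in falling order of Col3a1, red collagen-high, blue collagen-low and grey NoOp. Macrophage and matrix glycoprotein sums are higher in every red than in every blue bar. SNx 1 dominates the collagen panel at 7149, but the groups overlap there, with SNx 10 (blue) at 1488 above SNx 3 (red) at 1449. Proximal tubule sums range from 2481 to 25242 with low bars in both groups.

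Genes of tubular injury were higher in 12 of 15, by a median of 0.18 that became 0.07 without SNx 1. Spp1, osteopontin, ran from 12.49 to 13.85 log2 CPM in the collagen-high and from 11.26 to 13.69 in the collagen-low libraries, and Lcn2, lipocalin 2, differed by 0.54 in mean log2 CPM. Krt19, a keratin of collecting duct and injured tubule, gave a log2 fold change of 0.83 ± 0.38 (SE, n = 6 and 6, edgeR adjusted p = 0.637). Cell cycle genes were higher in 19 of 19, by a median of 0.29, yet 0 had an unadjusted p under 0.05. Immediate early and stress genes were higher in 8 of 10, by a median of 0.21 (0.09 without SNx 1).

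Lists of other cell types held few genes with a symbol. Ptpro, of podocytes, differed by -0.11 (-0.04 without SNx 1) and Ehd3, of glomerular endothelium, by -0.25 in mean log2 CPM. The 4 adipocyte genes had a median difference of 0.07, and of 2 of them that the tubule may also express, Cidec and Aqp7, the NoOp libraries held more than most remnant kidneys. The 6 genes of urothelium and basal epithelium had a median of 0.26 that became -0.26 without SNx 1. The summed level of these 6 was 6.88 to 181 CPM in the collagen-high, 6.72 to 125 in the collagen-low and 3.46 to 25.5 in the NoOp libraries, and its part in the other differences was not tested.

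Within the lower and the upper number range, the median differences were 0.48 and 0.44 for matrix glycoproteins, 0.58 and 0.45 for collagen processing, 0.45 and 0.08 for proteases, 0.27 and 0.29 for myofibroblast genes and 0.54 and 0.24 for the TGF-beta list. They were 0.34 and 0.37 for lymphocyte genes, 0.49 and 0.38 for complement, 0.11 and 0.41 for the cell cycle and -0.37 and -0.33 for the distal tubule. The sign differed between the ranges for urothelium, at -0.31 and 0.78, for adipocyte genes, at -0.45 and 0.24, and, beside the proximal tubule, for the few podocyte and endothelial genes, at -0.01 and 0.05 and at -0.35 and 0.01. With number range as a term in edgeR, fewer genes were higher at an unadjusted p under 0.05. Over all 15064 genes, higher or lower, 846 had such a p in place of 1179, so the lists fell along with the whole. Counts were 12 for macrophage genes in place of 16 and 5 for matrix glycoproteins in place of 10. For fibrillar and associated collagens 2 remained of 4, Col5a2 and Col8a1. For collagen processing 2 remained of 5, for TGF-beta and complement 1 of 3 each, for proteases 1 of 2 and for myofibroblast genes 0 of 2. Lymphocyte genes stayed at 5 and basement membrane collagens at 1.

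Genes without a symbol were among those that separated most. ENSRNOG00000049331 and ENSRNOG00000030021 were higher, by 1.03 and 0.94 in mean log2 CPM (n = 6 and 6, edgeR adjusted p = 0.368 and 0.279). ENSRNOG00000001173 ran from 2.53 to 3.29 log2 CPM in the collagen-high and from 3.37 to 4.02 in the collagen-low libraries, and ENSRNOG00000006293 from 4.55 to 5.18 and from 5.25 to 5.84. These 2 were lower, by log2 fold changes of -0.78 ± 0.15 and -0.68 ± 0.14 (SE, n = 6 and 6, edgeR adjusted p = 0.190 and 0.237).

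The groups overlapped on the main axes along which the 12 kidneys differed. With Col3a1 left out, the first principal component held 50.6% and the second 10.4% of the variance. On the first, collagen-high libraries averaged -12.7 ± 45.3 and collagen-low libraries 12.7 ± 44.8 (SD, n = 6 each, two-sided exact permutation test, p = 0.348, adjusted p = 0.584 over 6 measures). Without SNx 1 the collagen-high mean was 1.55 and the difference of -25.5 became -11.2. SNx 1 at -84.2 and SNx 5 at -55.4 lay at one end with the collagen-low libraries SNx 10 and SNx 6 at -34.2 and -34.1, and the other end was held by SNx 11, SNx 4 and SNx 9. SNx 1, SNx 5, SNx 6 and SNx 10 were also the 4 libraries with the lowest proximal tubule sums. Proximal tubule genes were among those from which the component was computed, so this match is not an independent observation.

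**Figure D5:**
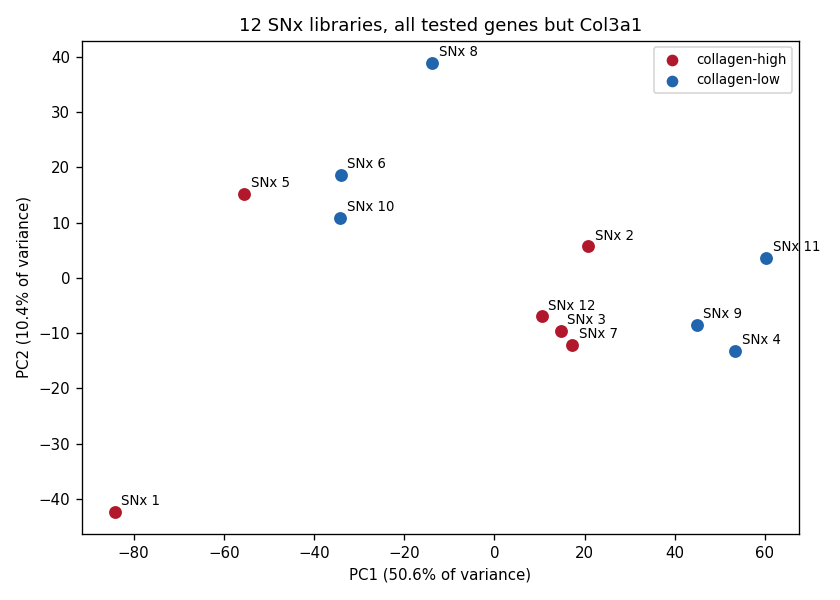
Scores of the 12 SNx libraries on the first (50.6% of variance) and second (10.4%) principal components of log2 CPM, red collagen-high and blue collagen-low. The colours mix along the first component, from SNx 1 at -84.2 to SNx 11 at 60.3.

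Both groups were also set beside the controls in a fit of all 17 libraries. Collagen-high kidneys differed from NoOp in 9012 of 15437 genes, 4595 higher (29.8%) and 4417 lower (28.6%). Collagen-low kidneys differed in 6314, 3686 higher (23.9%) and 2628 lower (17%). Without SNx 1 the counts were 8267 and 7076. When libraries were scaled by size alone, 6935 of 9389 and 5771 of 7017 called genes were higher, a share of 73.9% and 82.2% in place of 51.0% and 58.4%. The comparisons share the 5 NoOp libraries, so their values are only placed side by side, and the difference between their counts was not tested.

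The lists hold only genes with a symbol, mostly genes that the study lists as changed, so their counts against NoOp were largely set by that choice. The share of all genes with a symbol that differed from NoOp is not given here. All 6 fibrillar and associated collagens and all 5 basement membrane collagens were higher than NoOp in each group at an edgeR adjusted p under 0.05. Their median log2 fold changes were 2.35 and 1.46 in the collagen-high and 1.68 and 1.16 in the collagen-low kidneys. Of the 24 macrophage genes, 23 were higher than NoOp in the collagen-high and 22 in the collagen-low kidneys. All 20 lymphocyte genes were higher in each. Of the 36 proximal tubule genes, 28 were lower and 1 was higher in the collagen-high kidneys, and 18 were lower and 1 was higher in the collagen-low kidneys. For Col8a1 the log2 fold changes against NoOp were 3.88 and 3.01, for Col15a1 3.59 and 2.46, for Fn1 2.39 and 1.52 and for Csf1r 1.77 and 1.18, in the collagen-high and collagen-low kidneys.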

How the data were processed

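Kidney RNA of 12 SNx and 5 NoOp libraries was analysed, each taken as 1 rat. The authors quantified paired-end reads against the rn6 transcriptome (the submitters' processing notes name Salmon and limma, without versions), summarised them to genes and deposited estimated counts per gene, which were rounded here. Deposited log2 values after voom, for 13318 of 23487 genes, served only as an alternative. The whole-series tables repeat these values and served no purpose here.

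The main test was run with edgeR 4.0.16 under R 4.3.3 (filterByExpr, TMM, glmQLFit and glmQLFTest, two-sided, Benjamini-Hochberg over 15065 genes including Col3a1, threshold 0.05). Fold changes compare fitted mean counts; differences compare mean log2 CPM. DESeq2 1.42.0 and limma-voom (limma 3.58.1) were alternatives, with other scalings, filters, number ranges and each library left out. The tests were tried on simulated data. Figures used Python 3.11.15 and matplotlib 3.10.9. Replicate libraries were compared, and no pair matched within sampling noise. No molecular identifiers are mentioned, so counts are not single molecules.

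The members and gene lists were chosen with earlier results of these data known. Symbols came from the study's supplementary table, which pairs 2007 identifiers. Genes named in the text are all collagens with a symbol, the 3 members of each other list with the smallest p, and up to 8 genes with a symbol in each direction without overlap and a mean of at least 1 log2 CPM. Some genes that this rule selects are not reported here. At most 2 identifiers without a symbol were named in each direction. Tgfbi, Postn, Tagln, Cd68, C1qa, Cd2, Slc34a1 and Lcn2 were named outside this rule, after their values were seen. Lists were not tested as sets.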

Additional observations from a re-analysis of the deposited data

Results flagged for a closer look

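Of 210 groups of libraries, 31 held a library far from the rest by Dixon's ratio (the gap to the nearest library over the whole range of the group), where chance gives about 10.5, or 1 in 20. The genes share libraries, so the groups are not independent. SNx 1 was that library in 17 cases.

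Among the collagen-high libraries SNx 1 was far above the others for Col1a1 (0.833), Col5a2 (0.706), Col5a3 (0.645), Col6a1 (0.762), Col16a1 (0.796) and Col15a1 (0.753). The same held for the collagen-modifying and fibroblast genes Cthrc1 (0.629), Lox (0.685) and Fkbp10 (0.665), and for Fn1 (0.653), Sparc (0.771), Ltbp2 (0.689), Mmp2 (0.72), Tpm2 (0.66) and Inhba (0.637). SNx 1 was far below the others for Atp6v0a4 (0.636) and Aqp7 (0.73). In the same group SNx 5 was far above for Cx3cr1 (0.753).

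Among the collagen-low libraries SNx 8 was far below the others for Col6a1 (0.719), Col8a1 (0.716), Tpm2 (0.734) and ENSRNOG00000049331 (0.692). SNx 10 was far above for Krt19 (0.644) and SNx 11 far below for Upk3bl (0.708).

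Among the controls NoOp 5 was far below the others for Sparc (0.879), Cnn2 (0.716), Fcer1g (0.745), Aqp7 (0.823), C4a (0.877) and Adgre1 (0.768), and NoOp 1 for Cidec (0.712).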

How the results depend on the processing

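The count of genes past the adjusted threshold between collagen-high and collagen-low kidneys was 0 under every alternative run except DESeq2, which called 104 genes, 1398 at an unadjusted p under 0.05; the cause was not tested. Leaving out each library in turn gave 0 to 0 genes past the threshold and 845 to 1559 at an unadjusted p under 0.05. The smallest adjusted p was 0.0574 with Col3a1 rank as a numeric term and 0.0778 without SNx 10. The lower and the upper number range alone gave 0 each. Number range as a term gave 846 genes at an unadjusted p under 0.05. Ranking the libraries without TMM, with RLE factors or on the deposited normalized values put all 12 in the same group. Non-overlapping genes numbered 97 to 117. With RLE factors 87 lay above and 23 below, and with library size alone 93 above and 9 below. Of the 66 genes chosen by the naming rule, the sign was the same with RLE factors, library size alone, number range as a term, DESeq2, limma-voom and each library left out, except for Col18a1, Cfd and Krt15 without SNx 1, Cfd without SNx 8 and Col18a1 without SNx 11. Within the number ranges 5 genes had the other sign in the lower range (Col18a1, Cfd, Upk3bl, Krt15 and Ier5) and 5 in the upper (Slco1a1, Ptpro, Ehd3, Aqp7 and Krt17). DESeq2 called 14 of the 66. Without SNx 1, 8267 genes differed from NoOp in the collagen-high and 7076 in the collagen-low kidneys. Leaving out each NoOp library gave 8219 to 8684 genes against NoOp for the collagen-high and 4980 to 5790 for the collagen-low kidneys. Counts per list with each library left out were added after seeing the data. In the proximal tubule list 1 gene was higher and 1 was lower at an unadjusted p under 0.05 without SNx 6. No paired analysis was possible because the labels give the groups no shared replicate numbers.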
